A study of Mus musculus with 6 samples.

Results

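The genes described here encode the machinery that stores neurotransmitter in synaptic vesicles and fuses those vesicles with the plasma membrane. They were chosen by gene symbol alone, as transcript clusters with exactly 1 symbol in the platform annotation that belong to the synapsin, SV2, synaptophysin, synaptogyrin, VAMP, syntaxin, SNAP, syntaxin-binding protein, complexin, synaptotagmin, synaptotagmin-like, Doc2, Rims, Unc13 and Rab3 symbol families. The rule found 89 genes of the 14859 with a symbol of their own. A transcript cluster is the set of array probes that report on 1 gene. Stxbp4 and Vamp5 had more than 1 cluster, and the one with the higher mean was taken. Snap91 and the GTPases numbered Rab30 to Rab39 enter through their symbols, although Snap91 encodes a clathrin adaptor (AP180) and not a SNARE, and the latter GTPases are not isoforms of Rab3.

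Messenger RNA was measured on 6 exon arrays, 1 per sample, in star pyramid neurons, excitatory cells in layer 4 of mouse visual cortex that receive thalamic input. All animals were deprived of vision through 1 eye by injections of tetrodotoxin (TTX), a blocker of voltage-gated sodium channels that silences the eye, on postnatal day 12 to 13 and again on day 13 to 14. Neurons labelled with the fluorescent protein m-Citrin were picked by hand on postnatal day 14. The 3 arrays of the deprived group hold neurons of the deprived hemisphere and the 3 arrays of the non-deprived group those of the other hemisphere, so both groups come from animals that received TTX and no array of an untreated animal was analysed here. The labels end in the letter l for every non-deprived and r for every deprived sample, so that what these letters stand for cannot be told apart from the groups. The labels used here give no strain, no sex, no driver of the m-Citrin label and no statement on whether arrays came from separate or shared animals, so each p-value measures only how these samples scatter, which may be technical scatter in part.

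Vesicle release depends on a complex of SNARE proteins. VAMP2 on the vesicle pairs with a syntaxin and SNAP-25 on the plasma membrane, and the zippering of the complex pulls the membranes together. Synaptotagmins bind calcium and trigger fusion, complexins hold and clamp the assembled complex, and RIM and Munc13 (Unc13) proteins dock and prime vesicles at the active zone, with Rab3 on the vesicle as a partner of RIM. Synapsins tether the reserve pool of vesicles, and SV2, synaptophysin and synaptogyrins are abundant vesicle membrane proteins. Setting the deprived against the other hemisphere compares these transcripts between the sides. An effect of silencing the eye cannot be told apart here from what the letters l and r stand for.

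None of the 89 genes differed between the groups beyond the threshold, and the release core genes ranged from Syt1, which spanned 0.31 log2 units over the 6 arrays, to Unc13a, which spanned 4.10. Of the SNARE genes of the fusion complex, Snap25 spanned 0.47, Vamp2 0.68 and Stx1a 1.10. Values are the deposited expression values, taken as log2 from their range, so that a difference of 1 would be a 2-fold change. Limma, which fits each gene while sharing information on the variance between genes, called 0 of 89 members at an adjusted p under 0.05 (Benjamini-Hochberg over all 14859 genes), and 0% of all genes tested. At an unadjusted p under 0.05, limma found 7 members higher and 2 lower in the deprived arrays, which is 7.87% and 2.25% of them. Of all genes these shares were 3.81% and 1.41%, and of genes with a mean signal at or above the median of all genes 5.45% and 0.686%. The adjusted p of the members ran from 0.856 to 0.998. The median standard error of a member's log2 difference was 0.389.

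The mean was higher in the deprived arrays for 63 members and lower for 26. These 63 are 70.8%, beside 56.3% of all genes. The array signal of 68 of the 89 members was at or above the median signal of all genes, which is a band of signal and not a ranking of expression, and genes in that band leaned the same way. Of them 68.7% were higher in the deprived arrays, beside 73.5% (50 of 68) of the members at that level. The median log2 difference of the members was 0.15, of all genes 0.05 and of genes at or above the median level 0.23. After quantile normalization, which gives every array the same distribution of values, 46 members were higher and 43 lower (51.7% higher), beside 45.0% of all genes and 51.2% of genes at or above the median level. After centring each array on its median, 55 were higher and 34 lower (61.8% higher). Beside this, 44.5% of all genes and 60.5% of genes at or above the median level were higher. Quantile normalization moved the median difference of all genes to -0.04 and centring moved it to -0.05.

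Arrays 2 and 3 of the non-deprived group were unlike the other 4 in the level of the members. The median level of the 89 members was 6.92 in non-deprived array 1, 6.22 in array 2 and 6.38 in array 3, while the deprived arrays were at 6.77, 7.08 and 6.94. All genes at or above the median level moved alike, with 7.07, 6.40 and 6.53 in the non-deprived and 6.99 to 7.14 in the deprived arrays. Non-deprived array 2 was the lowest array for 28 members (31.5%), beside 23.2% of all genes and 34.2% of genes at or above the median level. With non-deprived arrays 2 and 3 left out, 46 members were higher and 43 lower. These 46 are 51.7%, beside 51.2% of all genes, and the median difference was 0.02, beside 0.01 of all genes. A fit of that setting assumes that the 1 remaining non-deprived array varies like the deprived arrays, so only its differences are given. The part that the quality of these arrays has in the differences was not tested.

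**Figure D1:**
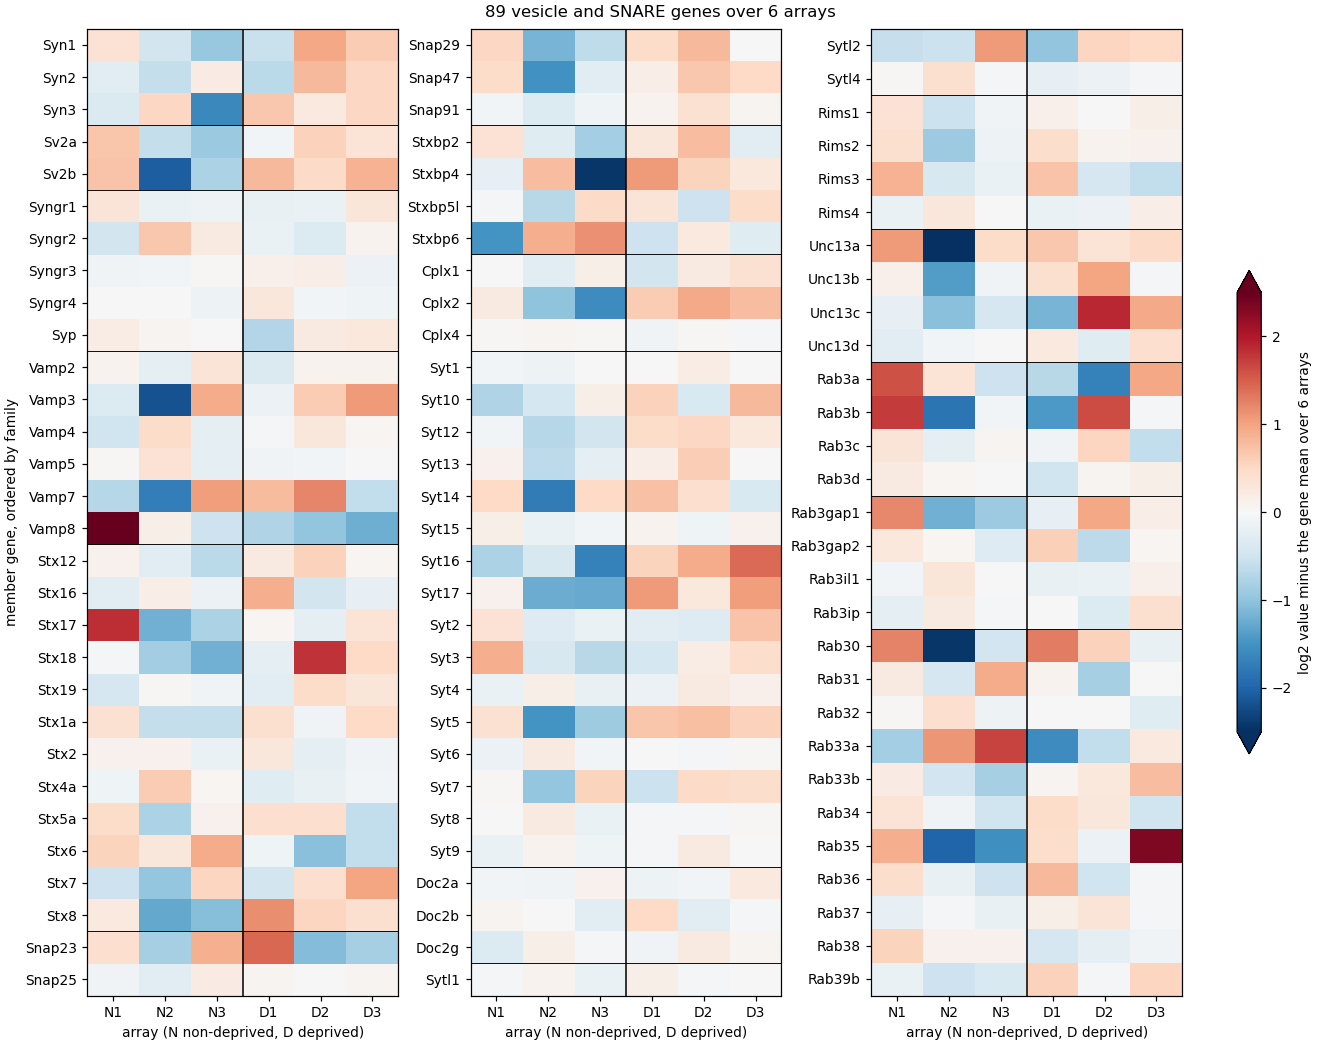
Each row is 1 of the 89 genes, ordered by family with lines between families, and each column 1 array (N for non-deprived, D for deprived). Colour gives the log2 value minus the mean of that gene over the 6 arrays. Non-deprived array 2 holds the lowest value of 28 genes, and rows such as Syt1, Snap25 and Vamp2 are nearly white across all arrays.

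Of the markers that define the labelled cells, 6 of 7 for excitatory neurons were measured, and all 6 had higher means in the deprived arrays. Their median level was 7.54 to 8.40 in the non-deprived and 8.42 to 8.54 in the deprived arrays. Rorb, a transcription factor of layer 4, was between 6.83 and 8.57 on the 6 arrays. All 8 markers of inhibitory neurons were measured, at a median level of 5.83 to 6.68 in the non-deprived and 6.12 to 7.23 in the deprived arrays, and Sst, the somatostatin precursor, was between 10.08 and 11.59 on every array. Astrocyte markers (5 of 5) had medians of 4.85 to 5.09 in the non-deprived and 4.79 to 6.04 in the deprived arrays, with deprived array 1 highest. Oligodendrocyte (5 of 6, medians of 5.09 to 5.59), precursor (2 of 2, 4.79 to 5.14), microglial (6 of 6, 4.59 to 4.75) and endothelial markers (4 of 4, 4.07 to 4.25) are given as list medians over the 6 arrays, and single markers varied more. Some markers, named after their values were seen, separated the groups. Slc17a7 and Tbr1 of excitatory neurons, Aif1 of microglia and Pecam1 of endothelium were higher in all 3 deprived than in all 3 non-deprived arrays. They differed by 1.02, 1.11, 0.78 and 0.32, while the other 5 microglial markers had lower means. Gfap of astrocytes and Mag of oligodendrocytes were wholly lower in the deprived arrays, with differences of -0.24 and -0.19. Of all genes, 6.3% were wholly higher and 4.03% wholly lower. None of these markers passed (adjusted p of 0.856 to 0.857 in limma). No marker was at 0, and the values have no known floor. The part that the mix of cells has in the member values was not tested, and in such samples fewer cells of a type and less RNA per cell cannot be told apart.

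**Figure D2:**
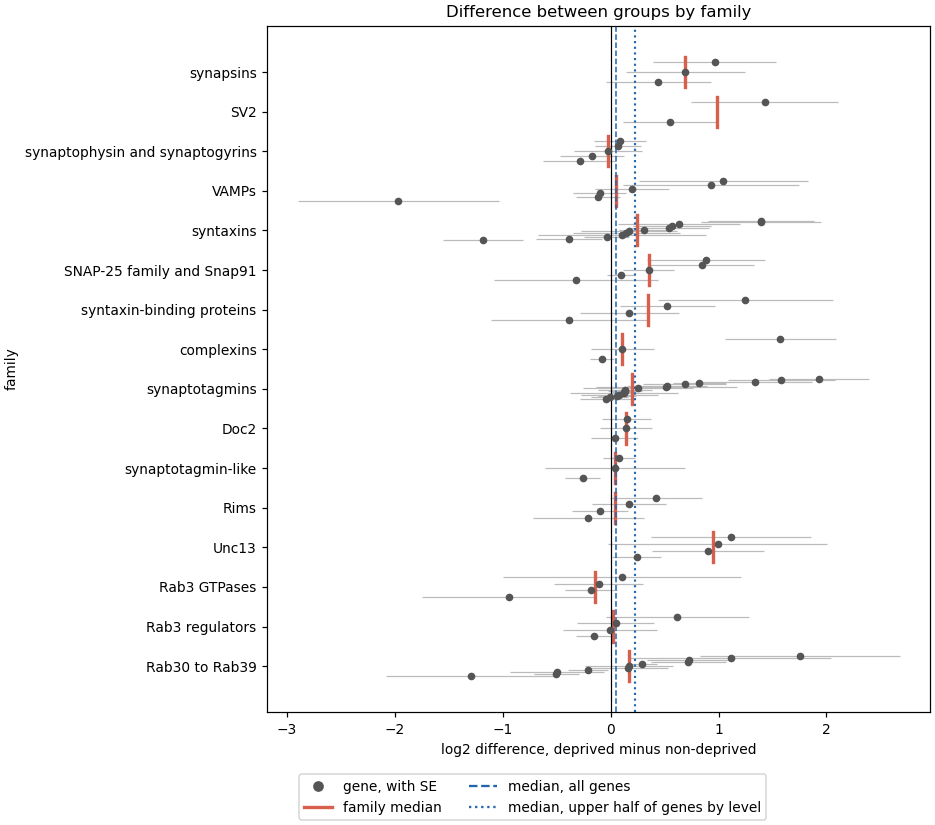
Points are the log2 differences (deprived minus non-deprived) of the 89 genes with their standard errors, in rows by family; red bars are family medians, the dashed line the median of all genes (0.05) and the dotted line that of genes at or above the median level (0.23). The medians of SV2 (0.99), Unc13 (0.95) and the synapsins (0.69) lie farthest to the right and that of the Rab3 GTPases (-0.15) farthest to the left.

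The 4 promoters shown next belong to members whose values are described below. Syn1 and Unc13a are the only members, of the 65 with a promoter to search, whose promoters hold part of the RE1 element, the binding site of the repressor REST, which keeps neuronal genes silent outside the nervous system. Syt16 and Cplx2 had the widest gaps between the groups among members higher in the deprived arrays. Each sequence runs from 250 bases before to 50 bases after the annotated start, 5′ to 3′ on the strand of the gene, from RefSeq (build GRCm38.p6). Capitals mark the left part (TTCAGCACC) and right part of RE1, the cAMP response element (TGACGTCA) bound by CREB, and the GC box (CCGCCC), each searched on both strands.
Syn1, chrX:20920869-20921168, minus strand: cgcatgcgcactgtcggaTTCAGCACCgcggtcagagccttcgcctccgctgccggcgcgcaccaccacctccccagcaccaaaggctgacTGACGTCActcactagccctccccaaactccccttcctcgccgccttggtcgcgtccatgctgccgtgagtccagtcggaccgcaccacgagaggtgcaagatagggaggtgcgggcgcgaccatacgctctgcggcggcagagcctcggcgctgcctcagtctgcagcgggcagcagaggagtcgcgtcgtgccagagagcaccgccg
Unc13a, chr8:71671708-71672007, minus strand: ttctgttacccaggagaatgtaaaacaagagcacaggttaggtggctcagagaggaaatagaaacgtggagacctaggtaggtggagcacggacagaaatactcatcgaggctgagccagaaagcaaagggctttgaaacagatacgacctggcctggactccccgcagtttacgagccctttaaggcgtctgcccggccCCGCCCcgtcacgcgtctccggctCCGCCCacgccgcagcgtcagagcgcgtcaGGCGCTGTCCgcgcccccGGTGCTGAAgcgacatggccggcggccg
Syt16, chr12:73997527-73997826, plus strand: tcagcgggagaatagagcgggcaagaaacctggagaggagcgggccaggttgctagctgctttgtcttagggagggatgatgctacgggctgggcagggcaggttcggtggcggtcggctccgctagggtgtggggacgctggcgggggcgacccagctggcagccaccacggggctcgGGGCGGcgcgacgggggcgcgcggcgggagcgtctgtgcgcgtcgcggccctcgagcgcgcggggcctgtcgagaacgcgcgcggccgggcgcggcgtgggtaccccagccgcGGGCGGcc
Cplx2, chr13:54302306-54302605, plus strand: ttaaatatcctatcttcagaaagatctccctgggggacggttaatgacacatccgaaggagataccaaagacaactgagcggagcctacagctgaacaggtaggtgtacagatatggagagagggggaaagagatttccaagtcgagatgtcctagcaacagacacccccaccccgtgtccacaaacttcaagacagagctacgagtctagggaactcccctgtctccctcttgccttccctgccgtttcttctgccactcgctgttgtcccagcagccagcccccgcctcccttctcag

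RefSeq held 86 promoters for 65 of the 89 members and 14894 for all genes tested. The left part of RE1 was found in 2 member promoters (2.33%), Syn1 and Unc13a, beside 0.356% of all promoters, and the right part in 1, Unc13a, beside 0.201%. In Syn1 the left part is read on the strand of the gene, and in Unc13a both parts lie on the opposite strand just behind the start. The full cAMP response element was found in 1 member promoter, Syn1 (1.16%), beside 2.36% of all promoters, and its shorter form TGACGT, which lies within the full element, in 4 (4.65%, beside 9.34%): Syn1, Rab3a, Stx5a and Vamp4. GC boxes were common, in 55 of 86 (64.0%, beside 52.1%). The Cplx2 promoter held none of the 11 motifs searched. The other 6 motifs were the TATA box (TATAAA, 5.81% beside 10.9%), the AP-1 site (TGACTCA, 5.81% beside 4.51%), the NRF1 site (2.33% beside 1.53%), the EGR site (GCGTGGGCG, 1.16% beside 0.927%, found in Unc13a), the serum response element and the MEF2 site, with the last 2 in no member promoter. These matches describe letters in a short window only.

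Among the SNARE proteins of the release site, Snap25 (cluster 6881488) was at 11.77, 11.61 and 12.07 in non-deprived arrays 1 to 3 and at 11.94, 11.88 and 11.93 in deprived arrays 1 to 3. Its values spanned 0.47 log2 units over all arrays, and the groups overlapped. The log2 difference was 0.10 with a 95% interval of -0.22 to 0.41. Vamp2, the vesicle SNARE, was at 11.26, 10.93 and 11.48 on the non-deprived side and 10.79, 11.25 and 11.26 on the deprived side, again overlapping, with a difference of -0.12 (95% interval -0.61 to 0.37). The signs of both turned when single arrays were left out, that of Snap25 without non-deprived array 2 and that of Vamp2 without non-deprived array 3 or deprived array 1. Stx1a, the syntaxin of the release site, was at 9.63 in non-deprived array 1, 8.65 in array 2 and 8.65 in array 3, and at 9.64, 9.15 and 9.74 in the deprived arrays. Non-deprived array 1 thus lay among the deprived values, and only the other 2 were lower. The difference of 0.54 (95% interval -0.37 to 1.44) was -0.12 against non-deprived array 1 alone and 0.86 without that array. Vamp1 was not analysed here.

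The main calcium sensor of fast release, Syt1 (cluster 6776872), had the narrowest range of the 68 members at or above the median level. It was at 11.37, 11.32 and 11.43 on the non-deprived side and 11.44, 11.63 and 11.43 on the deprived side, a range of 0.31 over all 6. Its difference was 0.13 (95% interval -0.14 to 0.39), so that in these arrays a change of Syt1 above 0.39 log2 units in either direction lay outside the interval. Complexin 1 (Cplx1) was at 9.93, 9.67 and 10.09 on the non-deprived side and 9.49, 10.18 and 10.34 on the deprived side. The groups overlapped, the difference of 0.11 had an interval of -0.59 to 0.81, and its sign turned without non-deprived array 2 or deprived array 3. Syt2, a fast sensor best known from inhibitory and hindbrain synapses, differed by 0.08 (-0.77 to 0.93; the sign turned without non-deprived array 2 or deprived array 3). Syt7, a slow sensor with high calcium affinity, differed by 0.25 (-0.97 to 1.47; the sign turned without non-deprived array 2).

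**Figure D3:**
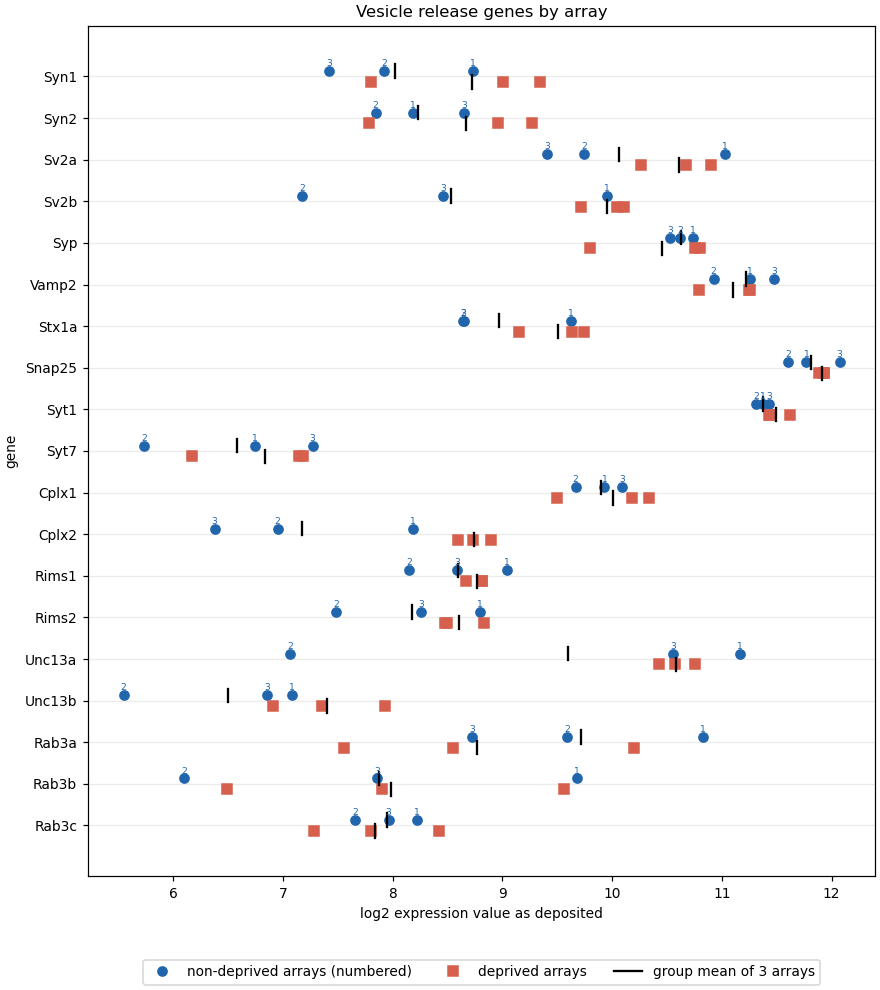
Log2 values of 19 vesicle release genes (horizontal axis) with 1 row per gene; blue circles are the 3 non-deprived arrays with their numbers, red squares the 3 deprived arrays, and black bars the group means. Syt1, Snap25 and Vamp2 cluster tightly, whereas the non-deprived values of Unc13a and Sv2b spread widely with array 2 lowest.

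Complexin 2, the other main neuronal complexin, had higher deprived values. Cplx2 (cluster 6807158) was at 8.19, 6.95 and 6.38 on the non-deprived side and 8.60, 8.90 and 8.73 on the deprived side. All 3 deprived values lay above all 3 non-deprived ones, by 0.41 at the closest. The difference was 1.57 ± 0.52 (SE), with an adjusted p of 0.856 and an unadjusted p of 0.0201 in limma. It was 1.18 without non-deprived array 3, 2.08 without non-deprived array 1 and 0.56 against non-deprived array 1 alone. Cplx4, known from the retina, was at 2.78 to 2.93 on all arrays. Cplx3 shared its cluster with another gene and was not analysed here.

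The 16 measured synaptotagmins had ranges over the 6 arrays from 0.31 to 3.10. Means were higher in the deprived arrays for 14 and lower for 2, with a median log2 difference of 0.19. The groups were completely separated in 4 of the 16, all with the deprived values higher (6.3% of all genes did so). All 4 were at or above the median level, where 9.27% of genes did so. After quantile normalization 10 were higher and 6 lower (median 0.10). Syt16 (cluster 6796053), an atypical synaptotagmin without the calcium-binding residues, was at 6.67, 7.05 and 5.77 on the non-deprived side and 8.01, 8.39 and 8.87 on the deprived side. The gap between the groups was 0.96, the widest of all members. Its difference of 1.93 ± 0.46 (SE) stayed between 1.56 and 2.21 with any 1 array removed, and was 1.76 against non-deprived array 1 alone. This was the smallest p among the members (unadjusted p = 0.00471, adjusted p = 0.856 in limma).

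Syt17 (B/K protein), which lacks the membrane anchor of classical synaptotagmins, was at 7.13, 5.78 and 5.76 on the non-deprived side and 8.08, 7.28 and 8.06 on the deprived side, a difference of 1.58 ± 0.50 (SE). Syt12, a phosphoprotein of synaptic vesicles, was at 5.72, 5.08 and 5.33 against 6.25, 6.30 and 6.05, a difference of 0.82 ± 0.24 (SE). Syt5, chosen for mention after its values were seen, was at 7.89, 6.001 and 6.62 against 8.19, 8.26 and 8.07. In all 3 genes the highest non-deprived value was that of array 1, and against that array alone the differences were 0.67 for Syt17, 0.48 for Syt12 and 0.29 for Syt5. None of them passed (adjusted p = 0.856 in limma for each). The remaining synaptotagmins, among them Syt3, Syt4, Syt6, Syt8 to Syt10 and Syt13 to Syt15, had groups that overlapped. Their differences, with those of Syt1, Syt2 and Syt7, ran from -0.04 to 0.69. Syt4, an activity-regulated member in neurons, spanned 0.42 over the 6 arrays.

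The genes of the Doc2 family, which includes calcium sensors of spontaneous release, were between 4.83 and 6.07 on all arrays. Doc2a, Doc2b and Doc2g differed by 0.04, 0.15 and 0.15 (the family median was -0.07 after quantile normalization), and the sign turned without deprived array 3 for Doc2a and without deprived array 1 for Doc2b. Among the synaptotagmin-like proteins, which bind Rab27 in other secretory cells, 3 were measured. Sytl4 was at 4.48, 4.85 and 4.42 against 4.25, 4.30 and 4.42, an overlap, with a difference of -0.26 ± 0.16 (SE). Sytl2 ranged from 6.17 to 8.23 with no separation of the groups.

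Vesicle proteins of the SV2 and synapsin families had higher means in the deprived arrays, with overlapping groups in each of the 5 genes. The family medians of 0.99 and 0.69 kept their sign after quantile normalization (0.85 and 0.46), while that of SV2 was -0.21 against non-deprived array 1 alone. Sv2b (cluster 6968453) was at 9.96, 7.18 and 8.46 on the non-deprived side and 10.05, 9.71 and 10.11 on the deprived side. Non-deprived array 1 lay among the deprived values and arrays 2 and 3 below them, so that the difference of 1.43 ± 0.68 (SE) became -0.000667 against array 1 alone. Sv2a was at 11.03, 9.74 and 9.41 against 10.27, 10.91 and 10.67. Here non-deprived array 1 was the highest of all arrays, and the difference of 0.55 was -0.41 against it. Without non-deprived array 2 the difference of Sv2b was 0.75, and without array 3 that of Sv2a was 0.23. Without non-deprived array 1 these differences were 2.14 for Sv2b and 1.04 for Sv2a. Sv2c was not analysed here.

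Syn1 (cluster 7015988) was at 8.73, 7.92 and 7.42 on the non-deprived side and 7.81, 9.35 and 9.01 on the deprived side. Syn2 was at 8.19, 7.85 and 8.66 against 7.78, 9.27 and 8.96. In both genes deprived array 1 lay with the low values and deprived arrays 2 and 3 were the highest of all. The differences of 0.69 ± 0.55 and 0.44 ± 0.49 (SE) became 1.15 and 0.89 without deprived array 1. Without deprived array 2 they were 0.38 and 0.14. Syn3 was at 6.74, 7.63 and 5.49 against 7.78, 7.36 and 7.62, a difference of 0.96 ± 0.57 (SE) that was 0.40 without non-deprived array 3. Synaptophysin (Syp) was at 10.74, 10.62 and 10.53 against 9.80, 10.76 and 10.80. Deprived array 1 alone was low, and the difference of -0.17 turned to 0.15 without it.

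Thus deprived array 1 was the lowest deprived array for Syn1, Syn2 and Syp. In the release core it was so for Vamp2, Cplx1, Cplx2, Sv2a, Rab3b, Unc13c, Doc2a, Syt7 and Syngr1 too. It was not so for the other core genes measured, among them Sv2b, Stx1a and Snap25. The 4 synaptogyrins, relatives of synaptophysin with 4 membrane spans, had ranges of 0.31 to 1.14 over the 6 arrays. Syngr1, Syngr2 and Syngr3 differed by -0.03, -0.29 and 0.09, and Syngr1 changed sign when array 1 of either group or deprived array 2 was removed. Their 95% intervals were -0.78 to 0.73, -1.09 to 0.51 and -0.50 to 0.67.

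The Unc13 genes, whose products open syntaxin for SNARE assembly, were higher in the deprived means in 4 of 4 members (median 0.95; 0.72 after quantile normalization and 0.36 against non-deprived array 1 alone), with the groups overlapping in each. Unc13a (Munc13-1, cluster 6983277), the main priming factor of excitatory synapses, was at 11.17, 7.07 and 10.56 on the non-deprived side and 10.76, 10.43 and 10.57 on the deprived side. A single array, non-deprived array 2, was low by over 3 log2 units, and the difference of 0.99 (95% interval -1.43 to 3.41) turned to -0.27 without it. Unc13b was at 7.08, 5.55 and 6.86 against 7.35, 7.93 and 6.91, a difference of 0.90 ± 0.52 (SE) that was 0.43 without non-deprived array 2. Unc13c, the Munc13 isoform best known from the cerebellum, was at 4.64, 3.80 and 4.43 against 3.68, 6.74 and 5.79. Its deprived values spanned 3.06, more than the difference of 1.11.

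The Rims genes encode active zone scaffolds that bind Rab3 and calcium channels. Rims1 was at 9.04, 8.15 and 8.59 on the non-deprived side and 8.81, 8.67 and 8.82 on the deprived side, which lie within the non-deprived range. Its difference of 0.17 had an interval of -0.65 to 0.99, and its sign turned without non-deprived array 2. Rims2 was at 8.80, 7.48 and 8.26 against 8.84, 8.48 and 8.49, a difference of 0.42 (-0.59 to 1.44) that was 0.07 without non-deprived array 2. Rims3 and Rims4, short forms that lack the Rab3-binding part, differed by -0.21 and -0.10.

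The Rab3 GTPases cycle on and off vesicles. Of the 25 release core genes measured, Unc13a, Rab3b and Rab3a had the widest ranges. Rab3a (cluster 6977032) was at 10.83, 9.59 and 8.72 on the non-deprived side and 8.55, 7.55 and 10.20 on the deprived side. Both groups spread over more than 2 log2 units and overlapped, and the difference of -0.94 had a 95% interval of -2.87 to 0.98. Rab3b was at 9.68, 6.10 and 7.86 against 6.49, 9.57 and 7.90. Here each group held a high, a middle and a low array, and the difference of 0.11 (-2.53 to 2.75) turned to -0.79 without non-deprived array 2 and to -0.68 without deprived array 2. Rab3c was at 8.22, 7.66 and 7.96 against 7.80, 8.43 and 7.28, a difference of -0.11 that changed sign without non-deprived array 1 or deprived array 3. Deprived array 1 held the second lowest value of both Rab3a and Rab3b, while the lowest were in deprived array 2 and non-deprived array 2. Rab3d, known from exocrine cells, varied less, between 5.20 and 5.91.

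Regulators of Rab3 were 4 genes with overlapping groups. Rab3gap1, a subunit of the complex that switches Rab3 off, was at 6.35, 3.94 and 4.24 against 4.95, 6.12 and 5.31. Non-deprived array 1 was the highest and arrays 2 and 3 the lowest of all, and the difference of 0.62 was -0.89 against array 1 alone. Rab3gap2, Rab3il1 and Rab3ip differed by -0.01, -0.15 and 0.05.

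SNAREs that serve traffic inside the cell were found on both sides of the comparison. The deprived values lay wholly below for Stx6 and Vamp8 and wholly above for Stx8, beside 4.03% and 6.3% of all genes. Stx6 (cluster 6754205), a syntaxin of the trans-Golgi network and endosomes, was at 7.38, 7.10 and 7.74 on the non-deprived side and 6.70, 5.77 and 6.19 on the deprived side. The groups were 0.40 apart, and the difference of -1.18 ± 0.37 (SE) stayed between -1.42 and -0.96 with any 1 array removed (unadjusted p = 0.0166, adjusted p = 0.856 in limma). Against non-deprived array 1 alone it was -1.15. Vamp8, an endosomal and lysosomal SNARE used for secretion in non-neuronal cells, was at 8.07, 4.90 and 4.24 against 4.01, 3.77 and 3.52. One value, that of non-deprived array 1, set most of the difference of -1.97 ± 0.93 (SE), which was -0.80 without it.

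Stx8, a late endosomal syntaxin, was at 6.98, 5.45 and 5.67 on the non-deprived side and 7.90, 7.27 and 7.12 on the deprived side. The groups were 0.14 apart, with a difference of 1.396 ± 0.49 (SE) that was 0.45 against non-deprived array 1 alone. Stx18, a syntaxin of the endoplasmic reticulum chosen for mention after its values were seen, was at 5.26, 4.41 and 4.09 against 5.07, 7.08 and 5.79. Its groups overlapped, although its unadjusted p was 0.0420 in limma (adjusted p = 0.856). The difference of 1.39 was 0.84 without deprived array 2 and 1.85 without deprived array 1. The 8 other syntaxins besides Stx1a differed by -0.39 (Stx4a, a plasma membrane syntaxin) to 0.63 (Stx7, an endosomal one). Among the other VAMPs, Vamp3 and Vamp7 differed by 1.04 and 0.93 with non-deprived array 2 lowest in both (3.87 and 5.19), while Vamp4 and Vamp5 differed by 0.20 and -0.10. The value of Vamp5 rests on 1 of its 2 clusters. With the clusters of each gene averaged, Vamp5 turned higher in the deprived arrays, and the VAMP median was 0.39 in place of 0.05.

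Of the other SNAP family genes, Snap29, a SNARE of autophagosome fusion, was at 6.91, 5.23 and 5.76 against 6.84, 7.20 and 6.39. Non-deprived array 1 lay among the deprived arrays, and the difference of 0.84 ± 0.49 (SE) was -0.10 against it. Without that array the difference was 1.32. Snap47 differed by 0.88 and Snap23, the relative of SNAP-25 in non-neuronal cells, by -0.32, each with overlap. Snap91 (AP180), named after its values were seen, was at 9.58, 9.30 and 9.53 against 9.74, 10.02 and 9.71, which separated the groups by 0.13. Its groups overlapped after median centring and stayed apart after quantile normalization. Among the 4 syntaxin-binding proteins, Stxbp2 and Stxbp5l differed by 0.52 and 0.18. Stxbp4 was at 6.92, 7.90 and 4.69 against 8.18, 7.68 and 7.39, with non-deprived array 3 lowest. The difference of 1.25 was 0.34 without that array, 1.95 without non-deprived array 2, and 0.56 with the 2 clusters of Stxbp4 averaged. Stxbp6 (amisyn), which binds syntaxin and SNAP-25 through a VAMP-like stretch, was lowest in non-deprived array 1 (7.51) and highest in arrays 2 and 3 (9.91 and 10.14), with deprived values of 8.48 to 9.24 between them.

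The 11 GTPases numbered Rab30 to Rab39 act in the Golgi, endosomes and pigment granules. Rab38, known from melanosomes, was at 5.94, 5.49 and 5.49 against 4.97, 5.14 and 5.30, a difference of -0.50 ± 0.21 (SE; unadjusted p = 0.0492, adjusted p = 0.856 in limma). The groups were 0.18 apart. Rab39b, a neuronal Rab whose human gene is mutated in intellectual disability, was at 7.73, 7.39 and 7.52 against 8.48, 7.87 and 8.44, a difference of 0.72 ± 0.35 (SE), and Rab37 differed by 0.29 with groups 0.02 apart. Both were named after their values were seen, the groups of Rab37 overlapped after either rescaling, and those of Rab39b overlapped after quantile normalization. Rab33a was at 7.21, 9.15 and 9.74 against 6.48, 7.43 and 8.31, a difference of -1.30 that turned to 0.20 against non-deprived array 1 alone. Rab35, which acts in endosomal recycling, ranged from 3.76 to 8.09. The other 6 (Rab30, Rab31, Rab32, Rab33b, Rab34 and Rab36) differed by -0.50 to 1.11 with overlapping groups.

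Counted over all families, the groups did not overlap in 12 of 89 members (10.3% of all genes did not), with 9 higher and 3 lower in the deprived arrays. These are 10.1% and 3.37% of the members, beside 6.3% and 4.03% of all genes and 9.27% and 2.17% of genes at or above the median level. The members higher were Syt16, Syt17, Cplx2, Stx8, Syt5, Syt12, Rab39b, Snap91 and Rab37, and those lower were Stx6, Vamp8 and Rab38. Against non-deprived array 1 alone, the deprived mean was higher in 46 of 89 members (51.7%), beside 51.2% of all genes. That array lay below every deprived array in 26 members (29.2%, beside 23.3% of all genes) and above every one in 21 (23.6%, beside 22.6%).

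**Figure D4:**
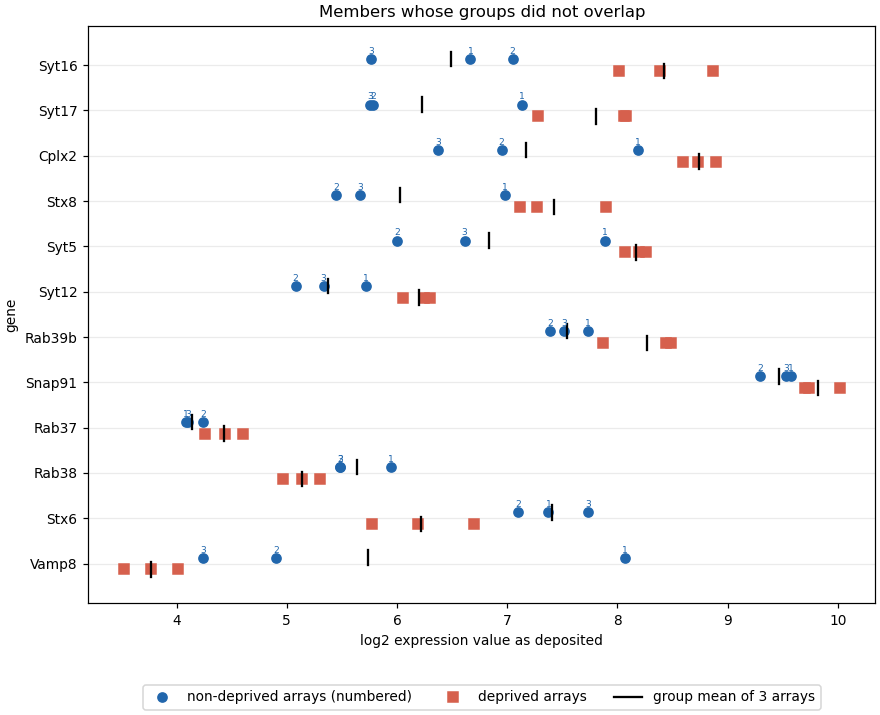
Log2 values (horizontal axis) of the 12 members whose groups did not overlap, ordered by the difference; blue circles are non-deprived arrays with their numbers, red squares deprived arrays, black bars group means. Syt16 shows the widest gap (0.96), followed by Cplx2 (0.41), Rab37 shows the narrowest (0.02), and in Vamp8 non-deprived array 1 stands alone at 8.07.

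The members differed widely in how much they varied. The range over the 6 arrays was under 1 log2 unit in 34 members (38.2%), beside 49.3% of all genes and 27.7% of genes at or above the median level, and over 2 in 27 (30.3%), beside 21.1% and 34.1%. It ran from 0.15 for Cplx4 to 4.54 for Vamp8. The release core genes within 1 unit were Syt1 (0.31), Syngr3 (0.31), Doc2a (0.38), Snap25 (0.47), Syngr1 (0.505), Vamp2 (0.68), Doc2b (0.80), Cplx1 (0.85) and Rims1 (0.89). Outside the core, Syt4 (0.42) and Snap91 (0.72) were within 1 unit too. The widest ranges of the core were those of Unc13a (4.10), Rab3b (3.59), Rab3a (3.28), Unc13c (3.06) and Sv2b (2.93). Of the 25 release core genes that were measured, 20 had higher and 5 lower means in the deprived arrays. Of all genes 56.3% were higher, and of genes at or above the median level 68.7%. The median difference of the core was 0.15, the same as for all members, and -0.013 against non-deprived array 1 alone.

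Other genes of the vesicle cycle gave no call either. Limma called 0 genes in each of 5 lists, as it called 0% of all genes. Active zone scaffolds other than Rims and Unc13 were measured in 12 of 17 listed genes, with 8 higher, 4 lower and a median log2 difference of 0.16, which was -0.09 after quantile normalization. Apba2 (Mint2), an adaptor protein, had the smallest p of them, with 8.43, 6.98 and 7.30 on the non-deprived side and 8.12, 8.86 and 8.29 on the deprived side. The proteins that take SNARE complexes apart, NSF and the SNAP adaptors (4 of 4 measured), were split evenly with a median of -0.03 (-0.15 after quantile normalization), and Napa (alpha-SNAP) differed by 0.70 ± 0.40 (SE). Vesicle endocytosis genes (23 of 25) had 20 higher, 3 lower and a median of 0.43 (0.24 after quantile normalization), with Clta, a clathrin light chain, at 0.56.

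The subunits of the proton pump that fills vesicles (12 of 15) had 11 higher, 1 lower and a median of 0.31, with Atp6v1g2, a neuronal subunit, at 0.35. Further vesicle proteins (14 of 16) had 9 higher and 5 lower, with a median of 0.40 (0.19 after quantile normalization). Scamp1, a secretory carrier membrane protein, was at 7.84, 5.41 and 6.82 against 8.18, 9.21 and 8.27, so that the groups did not overlap. It differed by 1.86 (adjusted p = 0.856 in limma), by 1.22 without non-deprived array 2 and by 2.44 without non-deprived array 1. With Cadps, Cadps2 and Syap1, 4 of these 14 genes were wholly higher. In the other lists Sh3gl3 and Atp6ap1 were wholly higher and Bin1 and Ppfia2 wholly lower. Of all genes 6.3% were wholly higher and 4.03% wholly lower, and of genes at or above the median level 9.27% and 2.17%. With non-deprived arrays 2 and 3 left out, the medians were 0.06 for active zone scaffolds, 0.04 for SNARE disassembly, 0.05 for endocytosis, -0.005 for the proton pump and -0.08 for further vesicle proteins.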

How the data were processed

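Log2 expression values per transcript cluster and array, summarised by the authors, were used as deposited (23331 clusters, 0.584 to 13.6). The scale was read from the values; how background and arrays were adjusted, and the log base, are not given in the sources. Per the submitters' processing notes the genome build was mm9. Per the labels' protocols, 0.3 to 1 ng of RNA was amplified in 2 rounds of T7 transcription, which starts at the 3′ end of transcripts.

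Clusters with 1 symbol in the platform annotation (14995; 1019 had several and 7317 none) gave 14859 genes, 89 of them members. Another 5 member symbols stood only in clusters shared with a further gene and were left out. Single genes were not ranked by level, since their probes differ; the median signal only divides the genes into bands. The groups were compared with limma 3.58.1 in R 4.3.3 (lmFit, eBayes with a trend), two-sided, with Benjamini-Hochberg adjustment over all genes at 0.05, after being tested on simulated data. Intervals are 95% intervals of that fit. The number of arrays (3 per group) limits the precision.

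Named genes were 31 listed release core genes (25 measured), the 5 members with the smallest p in each direction, the member with the smallest p in each family and the gene with the smallest p in each pathway list; 5 members were added after their values were seen. Members, lists and motifs were chosen with earlier results of these data known.

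Alternatives tried were quantile normalization, median centring, a block for the replicate number, 2 filters on low levels, the mean over clusters, no variance trend, and leaving out each array or non-deprived arrays 2 and 3.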

Additional observations from a re-analysis of the deposited data

How the results depend on the processing

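Of the 14 alternatives, 1 leaves a single non-deprived array and is given by its differences only. In all the others limma called 0 of the members and 0 of all genes. With the replicate block, 0 members and 0 of all genes passed. At an unadjusted p under 0.05 in limma there were then 8 of 89 members, beside 745 of all 14859 genes. With equal groups the block leaves every mean difference as it is (63 members higher, median 0.15). The deviations of same-numbered arrays from the group means correlated at -0.05, -0.02 and -0.003, so the data give no sign of pairing, and whether such arrays share an animal is not known. At an unadjusted p under 0.05 there were 4 to 21 members over the alternatives with more than 1 array per group (9 as reported, 21 without non-deprived array 1). Of all genes there were 459 to 1850 (775 as reported, 459 with the median filter, which tests fewer genes). Leaving out each array in turn gave 54 to 65 higher members and medians of 0.10 to 0.23, with the fewest and the lowest without non-deprived array 2.

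Of the 50 named genes, 25 changed sign under some alternative; the cause was not tested. After quantile normalization the differences were -0.16 for Doc2a, -0.0671 for Doc2g, -0.19 for Rab3b, -0.0303 for Rims1, -0.20 for Syngr3, -0.0587 for Syt2 and -0.0262 for Syt7, and after median centring -0.06 for Doc2a, -0.00967 for Syngr3 and -0.015 for Syt2. Without non-deprived arrays 2 and 3 they were -0.008 for Apba2, 0.20 for Rab33a, -1.70 for Rab3b, -0.89 for Rab3gap1, -0.27 for Rims1, -0.19 for Rims2, -0.10 for Snap29, -0.12 for Stx1a, -0.41 for Sv2a, -0.000667 for Sv2b, -0.013 for Syn1, 0.32 for Syngr2, -0.32 for Syt2 and -0.58 for Unc13a. Leaving out 1 array gave -0.41 to 0.17 for Rab3c, -0.18 to 0.13 for Syngr1, -0.058 to 0.36 for Cplx1, -0.79 to 1.01 for Rab3b, -0.0485 to 0.40 for Rims1, -0.007 to 0.23 for Snap25, -0.25 to 0.28 for Syt2, -0.17 to 0.60 for Syt7, -0.27 to 1.77 for Unc13a, -0.27 to 0.0345 for Vamp2, -0.071 to 0.31 for Doc2b, -0.35 to 0.15 for Syp and -0.0805 to 0.11 for Doc2a. Leaving out 1 array moved 38 of the 50 by over 1.5 times or turned their sign. With no measure of background, nothing can be said of the lower limit of detection.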
